A study of Hordeum vulgare with 12 samples.

Results

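miR159 is a family of plant microRNAs, small RNAs of about the length of the sequences printed below that guide the cleavage or repression of messenger RNAs with a matching site. It is described here in barley shoots and roots. A listed sequence was counted as miR159 when its deposited names gave miR159 more often than any other miRNA family, which holds for 35 of the 3258 sequences in the tables. Of these 35 sequences, 19 had no count in any library, 16 had at least 1 count and 6 had 100 counts or more. The 35 sequences summed to 841497 counts over the study, and the sequence named hvu-miR159b held 95.7% of them.

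The study compared the miRNAs of barley (Hordeum vulgare, cultivar Golden Promise) at 2 weeks of age under nitrogen excess and under a control supply. Nitrogen-excess shoots and nitrogen-excess roots came from plants on perlite with 280 mM NH4NO3, and control shoots and control roots from plants on the otherwise same medium with 28 mM. Each of the 4 groups had 3 libraries, labelled as biological replicates, made with the TruSeq small RNA kit, and each pot held a pair of seedlings. The labels do not tie shoot and root libraries to individual plants.

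miR159 is among the oldest and most abundant miRNA families of land plants. Its targets are messenger RNAs of GAMYB transcription factors, the MYB proteins through which gibberellin acts in the cereal aleurone and in anthers, and in Arabidopsis the miRNA keeps these factors silent in vegetative tissue. The miR319 family has a closely similar sequence and acts chiefly on TCP transcription factors of leaf growth. Messenger RNAs of GAMYB or TCP genes were not analysed here.

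The 6 sequences with 100 counts or more are printed below because all comparisons rest on them. They are written 5′ to 3′ as the deposited tables list them, with the seed, bases 2 to 8, in capitals. The last 2 lines give the most abundant miR319 sequences, for their likeness.
hvu-miR159b: tTTGGATTgaagggagctctg
aly-miR159b-3p: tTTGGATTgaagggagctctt
mtr-miR159a: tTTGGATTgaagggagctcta
osa-miR159d: aTTGGATTgaagggagctccg
zma-miR159a-5p: gAGCTCCTatcattccaatga
bdi-miR159b-5p.3: aGCTGCTTgttcatggttccc
bdi-miR319b-3p: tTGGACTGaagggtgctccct
mtr-miR319d-3p: tTGGACTGaagggagctccct

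hvu-miR159b carries 13 names from several species, barley's hvu-miR159a among them, and it is the mature 3p strand. Of the other miR159 sequences, 9 share its seed, and 7 of those 9 had counts. The printed 3p variants differ from it at their ends. Counting from 1 at the 5′ end of hvu-miR159b, with its base first, aly-miR159b-3p has G21T, mtr-miR159a has G21A, and osa-miR159d has T1A and T20C. zma-miR159a-5p, which also carries the name bdi-miR159b-5p.1, comes from the opposite (5p) arm of a miR159 hairpin, the strand usually discarded, and is called the 5p sequence below. bdi-miR159b-5p.3 is a further 5p sequence with a seed of its own. The most abundant miR319 sequence, bdi-miR319b-3p, matches hvu-miR159b at 16 of 20 overlapping bases when it is set 1 base further along, and mtr-miR319d-3p at 17 of 20. The sources used here do not say how the authors' counting shared reads among such near-identical sequences, so the counts of the variants are uncertain. Names from other species, such as zma (maize), osa (rice), aly and ath (Arabidopsis) or mtr (Medicago), give a species under which a sequence is listed, not the barley locus that made it. Of several names, the barley one or else the first in the deposited list is used here.

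Totals over all listed sequences were between 245176 and 2246495 counts per library. Library names fall into 3 series. Series A is replicate 1 of every group, series C is nitrogen-excess root replicate 3 alone, and series B is the other 7 libraries. A pair of libraries went against their tissue labels in ppt-miR319c, a sequence chosen after its values were seen. The library labelled nitrogen-excess shoot replicate 3 held 505 counts of it, where the other 5 shoot libraries held between 10 and 36. The library labelled control root replicate 3 held 22, where the other 5 root libraries held between 470 and 5173. The fold changes of miR159, the family's share of listed counts, the spans and the likeness are therefore given with these libraries and without them. Group means of the scaled levels below keep all libraries.

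The main strand, hvu-miR159b, was the most abundant miR159 sequence in all 12 libraries, and its counts varied far more within the shoot groups than between them. It had 313769, 36167 and 1664 counts in nitrogen-excess shoots, against 195672, 24358 and 26918 in control shoots. It had 16249, 14161 and 102806 counts in nitrogen-excess roots, against 31231, 13549 and 28641 in control roots. The replicate 1 libraries of both shoot groups and replicate 3 of nitrogen-excess root were high, the library labelled nitrogen-excess shoot replicate 3 was low, and nitrogen-excess and control values overlapped in each tissue.

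**Figure D1:**
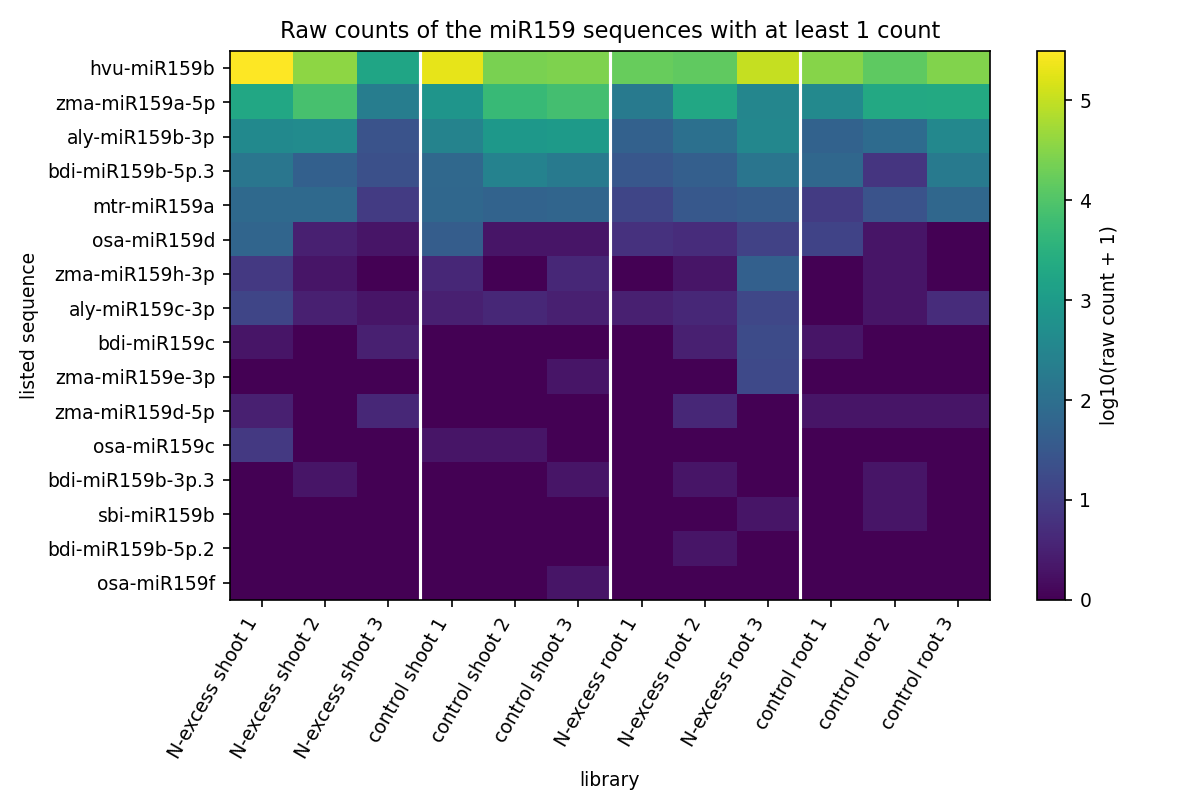
Raw counts of the 16 miR159 sequences with at least 1 count (rows) in the 12 libraries (columns), coloured by log10 of the count plus 1. White lines separate the 4 groups. hvu-miR159b fills the top row in every library, and the 10 sequences in the lower rows never exceed 47 counts.

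As a share of the counts listed in each library, the family stood at 14.1%, 5.74% and 0.79% in nitrogen-excess shoots, against 15.1%, 2.52% and 2.85% in control shoots. It stood at 3.66%, 1.19% and 6.52% in nitrogen-excess roots, against 1.94%, 1.37% and 4.79% in control roots. The groups overlapped in both tissues, and the highest shares of the study were both replicate 1 shoot libraries. The share averaged 6.87% ± 6.72 in nitrogen-excess shoots and 6.83% ± 7.17 in control shoots, and 3.79% ± 2.67 in nitrogen-excess roots and 2.70% ± 1.83 in control roots (SD, n = 3 each). Without the library labelled nitrogen-excess shoot replicate 3, nitrogen-excess shoots had a mean share of 9.92%, and without the library labelled control root replicate 3, control roots had one of 1.65% (n = 2 each), with the ranges still overlapping in both tissues. The 95% Wilson interval of the lowest share, in the library labelled nitrogen-excess shoot replicate 3, ran from 0.757% to 0.827%. Counting error was thus small beside the spread between replicates, although such intervals cover counting error alone, because without molecular identifiers several reads can stem from 1 molecule.

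**Figure D2:**
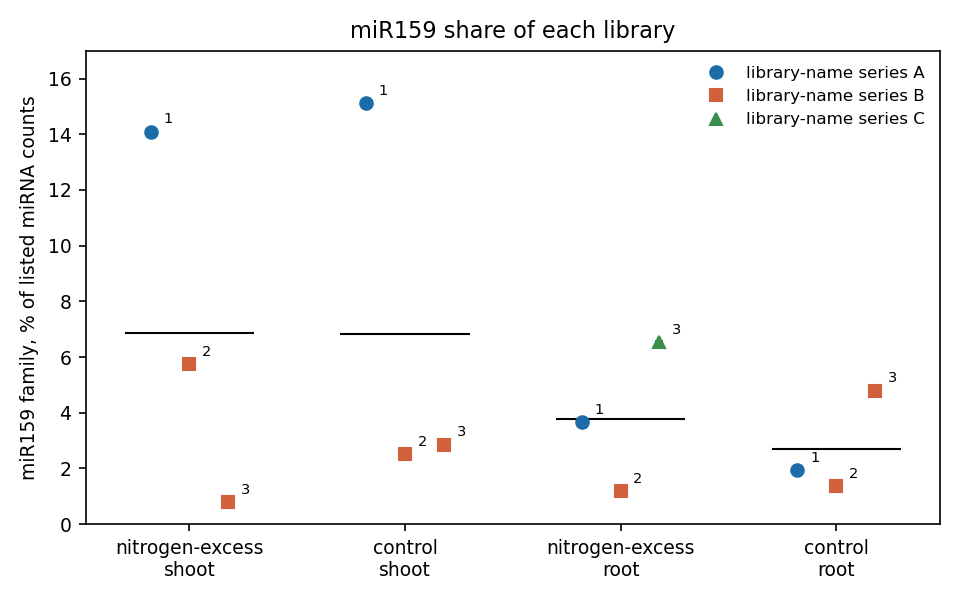
Share of listed miRNA counts held by the miR159 family (y axis, percent) in each library, by group (x axis), with replicate numbers beside the points. Bars through the points are 95% Wilson intervals, mostly smaller than the symbol, black lines are group means, and colour and shape give the library-name series. Both shoot libraries of series A, at 14.1% and 15.1%, lie above all others.

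Because shares move with the few most abundant miRNAs, levels were also scaled by TMM, a method that aligns libraries on the bulk of their sequences, and given as CPM, counts per 1000000 scaled counts. On the scale of the shoot libraries the family had 100296, 70880 and 10369 CPM in nitrogen-excess shoots, against 163429, 22635 and 25504 CPM in control shoots. On the scale of the root libraries it had 31974, 18137 and 33055 CPM in nitrogen-excess roots, against 35644, 26871 and 19655 CPM in control roots. The groups again overlapped in both tissues. In root the means nearly coincided, at 27722 ± 8318 CPM under nitrogen excess and 27390 ± 8007 CPM under control, and in shoot they were 60515 ± 45851 and 70523 ± 80472 CPM (SD, n = 3 each). The order of the shoot means rested on the library labelled nitrogen-excess shoot replicate 3. Without it, both remaining nitrogen-excess values, 100296 and 70880 CPM, lay above the control shoot mean. In bulk tissue such as this, a difference in the number of cells that make a miRNA and a difference in its amount per cell cannot be told apart.

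The first question of the design is whether nitrogen excess changed miR159 in shoot. It was not detectably changed. The log2 fold change of the family, nitrogen excess over control, was -0.22 ± 0.91 (SE, n = 3 each; edgeR quasi-likelihood test, Benjamini-Hochberg adjusted p = 0.918). None of the 5 miR159 sequences that passed the low-count filter was called at an adjusted p of 0.05, where 0% of all 148 tested shoot sequences were called. Of the 148 sequences, 15 had an unadjusted p under 0.05 in edgeR and DESeq2 called 8 (5.41%), none of them miR159. Without the library labelled nitrogen-excess shoot replicate 3 the family's log2 fold change was 0.29 (edgeR adjusted p = 0.894), and without control shoot replicate 1 it was 1.30, so its direction rested on single libraries.

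The sequences of the shoot did not all lean the same way, and none passed the test. hvu-miR159b had a log2 fold change of -0.27 ± 0.90 (edgeR adjusted p = 0.961). The 5p sequence had 2014, 8019 and 214 counts in nitrogen-excess shoots, against 737, 5109 and 7098 in control shoots. These overlapped, and its log2 fold change was 0.61 ± 1.07 (edgeR adjusted p = 0.941). aly-miR159b-3p, the variant with G21T, had 406, 455 and 25 counts in nitrogen-excess shoots, against 283, 864 and 985 in control shoots. Its range in nitrogen-excess shoots reached above the lowest control value, and its log2 fold change was -0.69 ± 0.92 (edgeR adjusted p = 0.852). bdi-miR159b-5p.3 had 141, 47 and 21 counts in nitrogen-excess shoots, against 72, 276 and 185 in control shoots, with a log2 fold change of -0.81 ± 0.81 (edgeR adjusted p = 0.755). mtr-miR159a, with G21A, had 74, 74 and 8 counts in nitrogen-excess shoots, against 67, 54 and 60 in control shoots, with a log2 fold change of 0.40 ± 0.81 (edgeR adjusted p = 0.961). The median over the 5 sequences was -0.27, and over all 148 it was -0.07. None of the 5 had CPM ranges that did not overlap, where 13.5% of the 148 did. Single libraries moved these values. Without nitrogen-excess shoot replicate 2, aly-miR159b-3p stood at -2.02, the 5p sequence at -1.84 and mtr-miR159a at -0.54, and without control shoot replicate 1, hvu-miR159b stood at 1.53. Over the 6 libraries left out in turn, aly-miR159b-3p lay between -2.02 and -0.18 and bdi-miR159b-5p.3 between -1.18 and -0.40. Without the library labelled nitrogen-excess shoot replicate 3, hvu-miR159b stood at 0.25, the 5p sequence at 1.07, aly-miR159b-3p at -0.32, bdi-miR159b-5p.3 at -1.16 and mtr-miR159a at 0.59.

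In root, too, no change of miR159 was detectable. The family's log2 fold change was 0.02 ± 0.79 (SE, n = 3 each; edgeR quasi-likelihood test, Benjamini-Hochberg adjusted p = 0.983), and without the library labelled control root replicate 3 it was -0.05 (edgeR adjusted p = 0.969). None of the 5 tested miR159 sequences was called, where 0% of 146 root sequences were. Only 1 of the 146 had an unadjusted p under 0.05 in edgeR, and DESeq2 called 0. hvu-miR159b stood at 0.07 ± 0.79 (edgeR adjusted p = 0.971).

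The remaining root sequences were scarcer. The 5p sequence had 181, 1992 and 332 counts in nitrogen-excess roots, against 380, 2026 and 2141 in control roots, with a log2 fold change of -0.97 ± 1.18 (edgeR adjusted p = 0.955). The series C library is a nitrogen-excess root with no counterpart among control roots, and the share of the 5p sequence split by series, as given below. This comparison therefore also differs in its make-up by series. aly-miR159b-3p had 50, 107 and 351 counts in nitrogen-excess roots, against 53, 84 and 359 in control roots, with a log2 fold change of -0.39 ± 0.89. bdi-miR159b-5p.3 had 30, 45 and 139 counts in nitrogen-excess roots, against 66, 6 and 183 in control roots, with a log2 fold change of -0.40 ± 1.00. All 3 sequences overlapped between the groups. mtr-miR159a had 13, 32 and 38 counts in nitrogen-excess roots, against 8, 24 and 66 in control roots, again overlapping, with a log2 fold change of -0.34 ± 0.98. The median over the 5 sequences was -0.39, beside -0.27 over all 146, and 8.22% of all root sequences but none of these 5 had CPM ranges that did not overlap. Without the library labelled control root replicate 3 the values turned to 0.14 for aly-miR159b-3p and 0.40 for bdi-miR159b-5p.3, and stood at 0.01 for hvu-miR159b, -1.30 for the 5p sequence and -0.11 for mtr-miR159a. Other libraries moved the root values as well. Without nitrogen-excess root replicate 2 the 5p sequence stood at -2.93, and without control root replicate 2 at 0.018. Over the 6 libraries left out in turn, mtr-miR159a lay between -0.83 and -0.0044, aly-miR159b-3p between -0.79 and 0.14 and bdi-miR159b-5p.3 between -0.89 and 0.40. In the authors' deposited tables, which hold a test of their own for each tissue, hvu-miR159b has a log2 fold change of -0.10 in shoot and 0.16 in root. The lowest adjusted p of a miR159 sequence in the authors' deposited tables is 0.676.

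**Figure D3:**
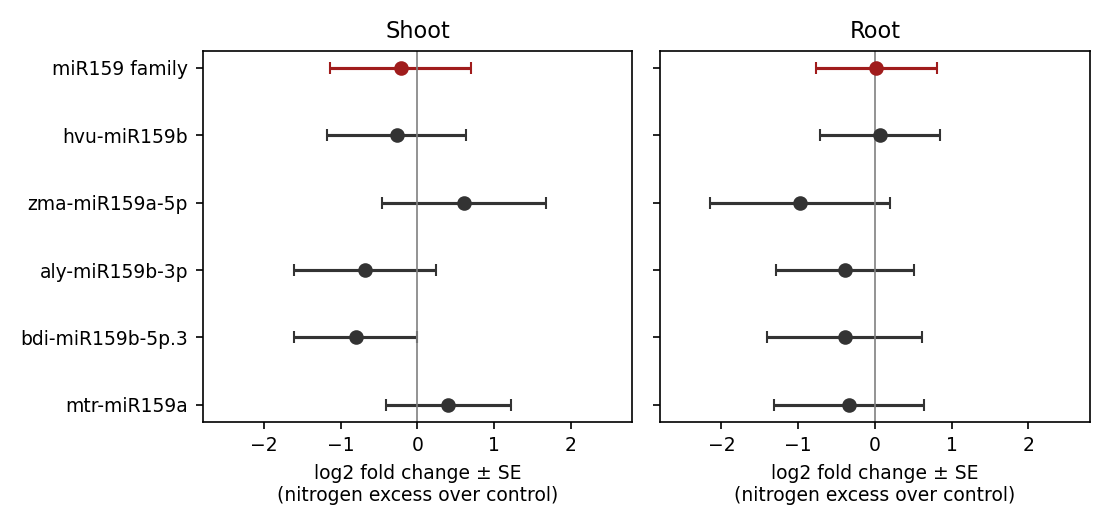
Log2 fold change of nitrogen excess over control (x axis) of the miR159 family (red) and of its 5 tested sequences (grey) in shoot (left) and root (right), with bars of 1 SE. The family stands at -0.22 in shoot and 0.02 in root, and its error bar spans 0 in both.

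The second question is whether the nitrogen effect differed between the tissues and how the tissues differed. On the scale of all 12 libraries the family's group means were, from the lowest up, 37583 ± 10810 CPM in nitrogen-excess roots, 37717 ± 11119 in control roots, 45613 ± 34764 in nitrogen-excess shoots and 53342 ± 65245 in control shoots (SD, n = 3 each). No neighbours in this order differed beyond their spread. The 6 root libraries lay within 1.96-fold of each other, between 25106 and 49176 CPM, and the 6 shoot libraries spanned 15.1-fold, between 8539 and 128675 CPM. Without the library labelled nitrogen-excess shoot replicate 3, the lowest of all, the shoot libraries spanned 8.62-fold, between 14926 and 128675 CPM. On this scale the root span did not rest on the library labelled control root replicate 3 and was 1.96-fold without it. The miR319 family spanned 7.14-fold in root and 3.60-fold in shoot, or 3.58-fold and 3.60-fold without those libraries. The narrow root span of miR159 depends on the TMM scaling, whose factors ran from 0.369 to 1.78 in root. As shares of listed counts, the root libraries ran from 1.19% to 6.52% and the shoot libraries from 0.79% to 15.1%.

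The nitrogen effect in root minus that in shoot was 0.22 ± 1.27 on the log2 scale (edgeR quasi-likelihood test, Benjamini-Hochberg adjusted p = 0.986). Root over shoot was -0.28 ± 0.90 in nitrogen-excess plants (edgeR adjusted p = 0.928) and -0.50 ± 0.90 in control plants (edgeR adjusted p = 0.788). None of the 6 miR159 sequences tested over all 12 libraries was called in these 3 comparisons, where 0% of 177 were. Unadjusted p-values under 0.05 were found for 8 of the 177 in the difference of effects, 9 in nitrogen-excess plants and 35 in control plants. DESeq2 called 0, 0 and 23 (13%) in the same order, and the 23 held no miR159 sequence. None of the 6 sequences had root and shoot ranges that did not overlap in control plants, where 12.4% of all 177 did. Without both libraries that went against their labels, the difference of effects was -0.56 (edgeR adjusted p = 0.880), root over shoot in nitrogen-excess plants -0.76 (edgeR adjusted p = 0.529) and in control plants -0.20 (edgeR adjusted p = 0.842). In that fit many sequences differed between the tissues, 35 of 183 (19.1%) in nitrogen-excess plants and 41 of 183 (22.4%) in control plants, and none in the difference of effects. None of the called sequences was one of the 6 miR159 sequences.

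The make-up of the family split by library-name series, while the study's groups overlapped. hvu-miR159b held 99.1%, 80.8% and 85.8% of the family's counts in nitrogen-excess shoots, against 99.4%, 79.4% and 76.4% in control shoots. It held 98.3%, 86.6% and 99.1% in nitrogen-excess roots, against 98.4%, 86.3% and 91.2% in control roots. In every group the first value, replicate 1, is the series A library, and those 4 libraries lay between 98.3% and 99.4% while the 7 series B libraries lay between 76.4% and 91.2%. The share was 88.6% ± 9.48 in nitrogen-excess shoots and 85.1% ± 12.5 in control shoots (SD, n = 3 each; two-sided exact permutation test, p = 0.6). It was 94.7% ± 6.99 in nitrogen-excess roots and 92.0% ± 6.05 in control roots (SD, n = 3 each; two-sided exact permutation test, p = 0.6). The smallest p that 3 against 3 libraries allow is 0.1. The only series C library, at 99.1%, is a nitrogen-excess root, so the root groups also differ in their make-up by series.

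The strand balance was split in the same way. The 5p sequence, which held 3.59% of the family's counts over the study, made up 0.638%, 18.1% and 11.4% of its sum with hvu-miR159b in nitrogen-excess shoots, against 0.375%, 17.3% and 20.9% in control shoots. It made up 1.10%, 12.3% and 0.322% in nitrogen-excess roots, against 1.20%, 13.0% and 6.96% in control roots. Series B thus ran from 6.96% to 20.9% and series A from 0.375% to 1.20%, with no overlap in any tissue or treatment, and the series C library had 0.322%, with a 95% Wilson interval of 0.289% to 0.358%. The 3p variants with another last base followed the same split. aly-miR159b-3p made up 0.616% to 3.53% of its sum with hvu-miR159b in series B, 0.129% to 0.307% in series A and 0.340% in series C. mtr-miR159a made up 0.177% to 0.478% in series B, 0.0236% to 0.0799% in series A and 0.0369% in series C. bdi-miR159b-5p.3 did not split, with 0.0443% to 1.25% in series B, 0.0368% to 0.211% in series A and 0.135% in series C. The ranges of osa-miR159d, on few counts, overlapped too, with 0% to 0.0601% in series B, 0.0198% to 0.0384% in series A and 0.0107% in series C. The pattern was seen in the values before it was put to a test, so the tests below describe it and do not stand as independent support.

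**Figure D4:**
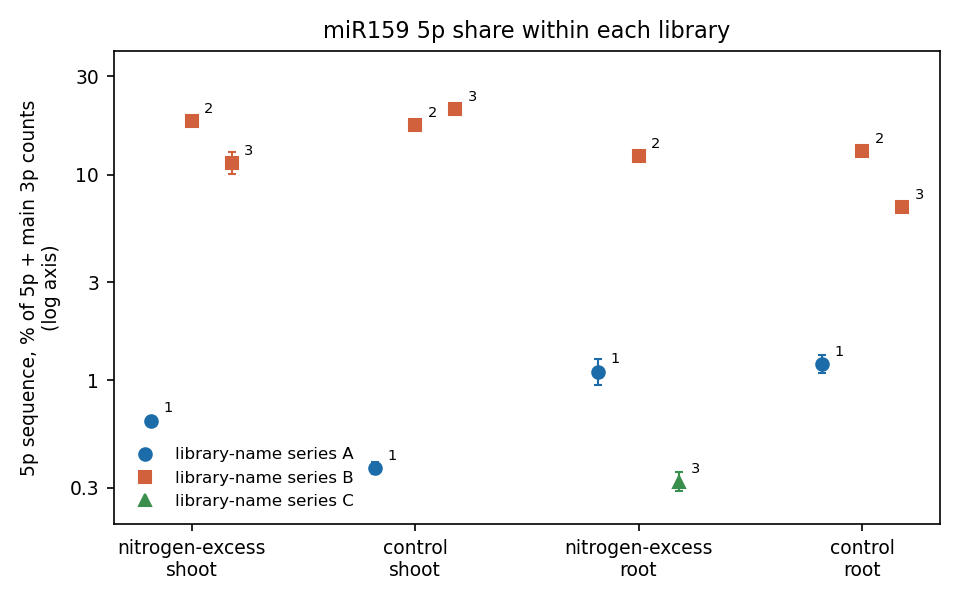
Share of the 5p sequence in its sum with hvu-miR159b (y axis, percent, log axis) in each library, by group (x axis), with replicate numbers beside the points and bars of the 95% Wilson interval. Colour and shape give the library-name series. All 7 series B libraries lie between 6.96% and 20.9%, and the 5 libraries of series A and C lie between 0.322% and 1.20%.

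With the group kept as a term in a fit over all 12 libraries, 9 of 177 sequences (5.08%) were called between series B and series A, 6 higher in B (3.39%) and 3 lower (1.69%). Of the miR159 sequences, the 5p sequence was higher, with a log2 fold change, B over A, of 2.77 ± 0.74 (edgeR quasi-likelihood test, Benjamini-Hochberg adjusted p = 0.0487). osa-miR159d, which is among the 3 lower ones, had 62, 2 and 1 counts in nitrogen-excess shoots, against 41, 1 and 1 in control shoots, and 5, 4 and 11 counts in nitrogen-excess roots, against 12, 1 and 0 in control roots, so it passed the low-count filter through the libraries in which it was high, mainly those of series A. Its entry to the test thus depended on the series compared, and its test is not read as a result. The call of osa-miR159d was also lost in 8 of the 12 fits that left out 1 library, where its value lay between -3.89 and -2.63. hvu-miR159b stood at -1.84 ± 0.64 (edgeR adjusted p = 0.119), aly-miR159b-3p at 1.27 ± 0.62 (edgeR adjusted p = 0.290) and the family at -1.58 ± 0.60 (edgeR adjusted p = 0.256). The call of the 5p sequence was near the threshold. It was lost when libraries were scaled to equal totals (2.82, edgeR adjusted p = 0.108), to equal totals without miR165 and miR166 (2.66, edgeR adjusted p = 0.135) and in 9 of the 12 fits that left out 1 library, all but those without nitrogen-excess shoot replicate 3, nitrogen-excess root replicate 3 or control root replicate 3. In these 12 fits its value lay between 2.30 and 3.21. Without both libraries that went against their labels, the 5p sequence stood at 3.30 (edgeR adjusted p = 0.000195), hvu-miR159b at -1.48 (edgeR adjusted p = 0.0348), aly-miR159b-3p at 1.55 (edgeR adjusted p = 0.0348) and the family at -1.21 (edgeR adjusted p = 0.0271). In that fit 39 of 183 sequences (21.3%) and 21 of 79 families (26.6%) were called, so such calls were common among all miRNAs. The sources used here give only names for the series, and what differed between them was not tested.

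A 5p share was also summed over the sequences whose names give only the 5p or only the 3p arm. It was computed for the 9 miRNA families with at least 10 such counts on each arm in every library. Sequences named with neither arm, such as osa-miR159d, or with both were left out. For miR159 this sum rests mainly on the 5p sequence and hvu-miR159b, whose split had already been seen, so it adds no support. Its series did not overlap, at 7.41% to 20.7% in B and 0.411% to 1.41% in A. Series B and series A overlapped in the other families. Those were not picked for a split, so the contrast does not mark miR159 out. In the miR319 family, the 5p arm held 0.774% to 2.78% in B and 1.62% to 1.82% in A. In the miR166 family it held 0.167% to 0.395% in B and 0.218% to 0.323% in A.

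The balance of miR159 with miR319 was compared within each library, where scaling between libraries plays no part. There were 14.9, 2.71 and 0.653 miR159 counts per miR319 count in nitrogen-excess shoots, against 8.17, 1.36 and 1.67 in control shoots. There were 1.43, 1.83 and 1.60 in nitrogen-excess roots, against 1.00, 2.68 and 3.93 in control roots. miR159 outnumbered miR319 in every library except that labelled nitrogen-excess shoot replicate 3. The groups overlapped in both tissues. The ratio was 6.08 ± 7.68 in nitrogen-excess shoots and 3.74 ± 3.85 in control shoots (SD, n = 3 each; two-sided exact permutation test, p = 0.7). It was 1.62 ± 0.20 in nitrogen-excess roots and 2.54 ± 1.47 in control roots (SD, n = 3 each; two-sided exact permutation test, p = 0.4). Root minus shoot, the means of the ratio differed by -4.45 in nitrogen-excess plants (two-sided exact permutation test, p = 0.5) and by -1.20 in control plants (two-sided exact permutation test, p = 0.8). Single libraries changed the size of all these differences. They changed the direction only between the shoot groups and between control roots and control shoots. In shoot the difference of the means, nitrogen excess minus control, was -2.06 without nitrogen-excess shoot replicate 1 and 5.05 without the library labelled nitrogen-excess shoot replicate 3, beside 2.34 with all libraries. In root it was -1.68 without control root replicate 1 and -0.22 without the library labelled control root replicate 3, beside -0.92 with all. Root minus shoot was -0.061 in nitrogen-excess plants without nitrogen-excess shoot replicate 1 and -7.17 without the library labelled nitrogen-excess shoot replicate 3. In control plants it was 1.02 without control shoot replicate 1, and between -2.39 and -0.43 without any other single library. In shoot, both series A libraries had the highest ratios, while in root series A gave the lowest ratio of each group.

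**Figure D5:**
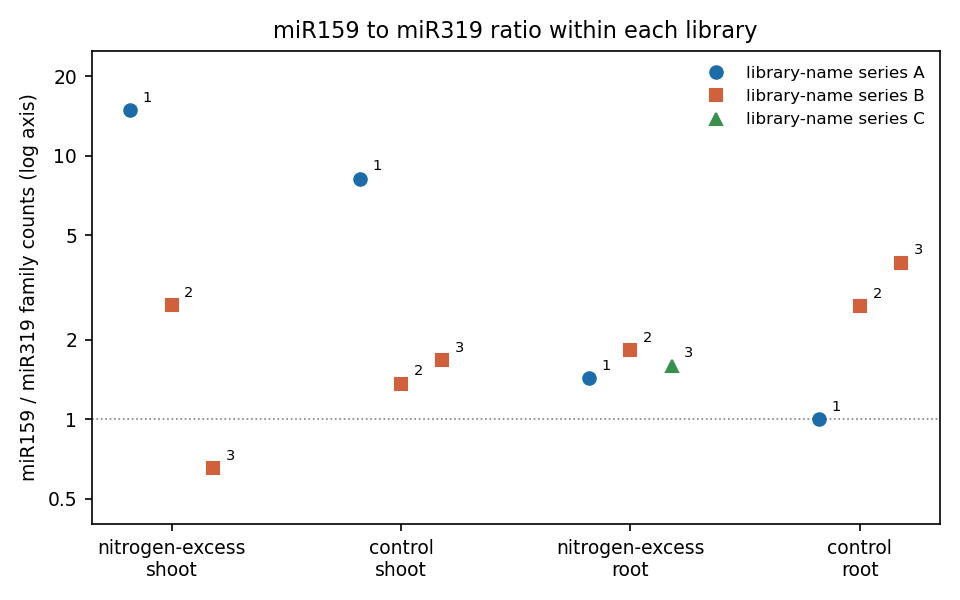
Ratio of miR159 to miR319 family counts (y axis, log axis) in each library, by group (x axis), with replicate numbers beside the points, colour and shape for the library-name series and a dotted line at equal counts. The series A shoot libraries, at 14.9 and 8.17, lie above the rest.

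A further 6 miRNA families of growth, phase change and flowering were set beside miR159 together with miR319: miR156 and miR172, which time the change from juvenile to adult growth, miR396 on growth-regulating factors, miR171 on GRAS factors, miR164 on NAC factors and miR5200 on grass flowering genes. All 7 families passed the filter, and none was called in either tissue, where 0% of 58 shoot families and 0% of 66 root families were. Unadjusted p-values under 0.05 were found for 9 of the 58 shoot families and 0 of the 66 root families. In shoot, 1 log2 fold change of nitrogen excess over control was positive and 6 were negative, with a median of -0.87 beside -0.09 over all families. The most negative was miR5200 at -2.30 ± 0.88 (edgeR adjusted p = 0.188), which DESeq2 called, at -2.36 (DESeq2 adjusted p = 0.0439), among 6 of 58 shoot families (10.3%). miR172 stood at -1.26 (edgeR adjusted p = 0.224) and miR396 also at -1.26 (edgeR adjusted p = 0.226). In root, 2 were positive and 5 negative, with a median of -0.82 beside -0.15 over all families. miR319 stood at -0.09 in shoot and 0.06 in root. Without the library labelled nitrogen-excess shoot replicate 3 all 7 were negative in shoot, with a median of -0.97 beside -0.10 over 61 families. With the library labelled control root replicate 3 left out, 3 were positive and 4 negative in root, with a median of -0.19 beside -0.06 over 70 families. Neither edgeR fit called any family, and 9 of the 61 and 4 of the 70 had an unadjusted p under 0.05.

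The family whose level followed miR159 most closely over the 12 libraries was miR7757, with a Spearman rho of 0.85 on the log2 CPM scale and a Pearson r of 0.73, or 0.72 without the 2 libraries farthest from the median of miR159. The next were miR9774 at a rho of 0.54 and miR1432 at 0.53, and their Pearson r dropped to 0.34 and 0.37 without those libraries. The strongest opposite relation, noted after the values were seen, was that of miR5051, with a rho of -0.83 and a Pearson r of -0.81, or -0.82 without the 2 farthest libraries. Over the 10 libraries without the pair that went against their labels, the rho was 0.85 for miR7757, 0.78 for miR9774, 0.59 for miR1432 and -0.82 for miR5051. The median rho over the 74 families compared was -0.05. These values describe 12 libraries that share the scaling factors and the library-name series, and carry no test.

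The 10 miR159 sequences with fewer than 100 counts summed to 177 counts, between 1 and 63 each. The most abundant was zma-miR159h-3p, with T7G inside the seed and 47 of its 63 counts in nitrogen-excess root replicate 3, the series C library. In that library bdi-miR159c, with A6T and A15G, had 17 of its 23 counts and zma-miR159e-3p, with T1A, A6T, T20C and G21A, had 15 of its 16. No other library held more than 7 counts of any of these 3 sequences, which were singled out after their values were seen. The other 7 were aly-miR159c-3p (47 counts), zma-miR159d-5p (11), osa-miR159c (9), bdi-miR159b-3p.3 (4), sbi-miR159b (2), bdi-miR159b-5p.2 (1) and osa-miR159f (1). For the 19 sequences with no count, 3 counts give an upper limit of 0.000134% to 0.00122% of a library's listed counts, depending on its total.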

How the data were processed

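Small RNAs were counted in 12 libraries. The authors deposited whole-number counts per sequence and library, 1 table per tissue. The deposited signal columns, normalized counts per the file headers, were not used. The deposited log2 fold changes and p-values, per the file headers, compare nitrogen excess with control and are quoted only as the authors' values. The submitters' processing notes name DESeq2, with no version. The sources used here do not give trimming, counting or mismatch settings.

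Counts were fitted with edgeR 4.0.16 in R 4.3.3, after filterByExpr (minimum count 10, total 15) and TMM scaling, by the quasi-likelihood test with Benjamini-Hochberg adjustment over all features of the fit. The recovery of simulated fold changes was checked only at a smaller spread between replicates than in these data. That check does not show what size of change these fits could detect. Tissues were fitted alone for treatment. All 12 libraries were fitted together for the tissue comparisons, the difference of effects and, added after seeing the data, the library-name series. Families were summed by name and used the sequences' scaling. Shares and ratios used an exact permutation test (scipy). Named were all miR159 sequences past the filter in a tissue, with counts in every library from 100 counts upward, the related families, the 3 families most like miR159 and the leading miR319 sequences. ppt-miR319c, osa-miR159d, mtr-miR319d-3p, miR5051 and the rare sequences given by name were added after their values were seen. The members and lists were chosen with earlier results of these data known. Alternatives of scaling and filter were RLE scaling in edgeR in place of TMM, equal totals (also without miR165 and miR166), scaling on family sums, no filter, and at least 20 counts in 3 libraries. Further alternatives were DESeq2 1.42.0, limma-voom (limma 3.58.1), the replicate number as a block, the library-name series as a term or series B alone, and leaving libraries out. Listed totals are not sequencing depth.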

Additional observations from a re-analysis of the deposited data

How the results depend on the processing

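No miR159 sequence was called in any of the 5 design comparisons under any alternative run, and the family stayed above an adjusted p of 0.05 in each, but its direction was not stable, and the cause was not tested. In shoot, the family's log2 fold change of -0.22 turned to 0.0061 with RLE scaling, 0.010 with equal totals, 0.073 with no filter and 0.097 with the stricter filter. It turned to 0.25 with limma-voom, 0.28 with the library-name series as a term, 1.13 in series B alone and 0.33 with scaling on family sums. In root, 0.02 turned to -0.097 with DESeq2, -0.27 with the series term and -0.59 in series B alone. The difference of effects turned to -0.10 with DESeq2, -0.23 with limma-voom, -0.62 with the series term, -1.67 in series B alone and -0.56 without both libraries that went against their labels. Root over shoot in control plants turned to 0.23 with limma-voom, 0.11 with the series term and 0.74 in series B alone. Leaving out 1 library gave -0.76 to 1.30 in shoot, -0.13 to 0.25 in root, -1.54 to 0.78 for the difference of effects, -0.77 to 0.11 for root over shoot in nitrogen-excess plants and -1.34 to 1.26 in control plants.

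Same-numbered libraries resembled each other in part only. The correlations of their deviations were 0.497, 0.0676 and 0.0513 in shoot and 0.151, 0.499 and -0.24 in root. Nitrogen-excess shoot replicate 1 and nitrogen-excess root replicate 2 correlated best with the control library of their own number, and the other nitrogen-excess libraries did not. Root replicate 3 sets the series C library beside the one labelled control root replicate 3, so its value says little about pairing. Pairing and series cannot be told apart for replicate 1, the series A library of every group. Shoot replicate 3 includes the library labelled nitrogen-excess shoot replicate 3, which went against its label. With the replicate block, 3 of 148 shoot sequences were called, none of them miR159, and the family stood at -0.17 in shoot, 0.01 in root, 0.07 for the difference of effects, and at 0.12 and 0.047 for root over shoot in nitrogen-excess and control plants. With the replicate block, bdi-miR159b-5p.3 turned to 0.067 in root, zma-miR159a-5p to -0.088 in shoot and miR171 to -0.12 in shoot.

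Among named sequences, hvu-miR159b in shoot turned to 0.0069 with equal totals, 0.053 with no filter, 0.083 with the stricter filter, 0.20 with limma-voom, 0.32 with the series term and 1.19 in series B alone, and in root to -0.29 with the series term and -0.63 in series B alone. zma-miR159a-5p turned to -0.27 in shoot and bdi-miR159b-5p.3 to 0.034 in root with limma-voom, and mtr-miR159a to 0.50 in root with the series term. Without 1 library, hvu-miR159b lay between -0.97 and 1.53 in shoot and -0.11 and 0.36 in root, zma-miR159a-5p between -1.84 and 1.38 in shoot and -2.93 and 0.018 in root, mtr-miR159a between -0.54 and 0.80 in shoot, and in root aly-miR159b-3p between -0.79 and 0.14 and bdi-miR159b-5p.3 between -0.89 and 0.40.

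For related families, miR171 in shoot turned to -0.24 with equal totals, -0.087 with no filter, -0.21 with limma-voom and -0.11 with the series term, and in root to 0.27 with equal totals and 0.48 in series B alone. miR319 turned in shoot to 0.037 with RLE scaling, 0.039 with scaling on family sums and 0.68 in series B alone, and in root to -0.046 with the series term. Without 1 library, miR171 lay between -0.36 and 0.48 in shoot and -0.96 and 0.0029 in root, miR319 between -0.62 and 0.25 in shoot and -0.20 and 1.21 in root, miR396 between -1.45 and 0.14 and miR5200 between -1.51 and 0.38 in root. The share held by hvu-miR159b differed by -1.75 to 10.7 percentage points in shoot, -0.14 to 6.71 in root, 2.18 to 11.4 between nitrogen-excess root and shoot and 2.56 to 14.1 between control root and shoot, and the ratio to miR319 by -2.06 to 5.05, -1.68 to -0.22, -7.17 to -0.061 and -2.39 to 1.02.

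The median of all 148 shoot sequences was 0.05 with RLE scaling against -0.07 with TMM, and that of 146 root sequences 0.09 with equal totals against -0.27. In control plants, root over shoot, it was -0.61 with equal totals against 0.24. Pseudocount alternatives were not run because counts were deposited. Depth limits the sequences under 100 counts.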
